A study of Mus musculus with 12 samples.

Results

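DNA replication and S phase genes were followed in KH2 mouse embryonic stem (ES) cells over the first hours of retinoic acid (RA) treatment. They are 40 genes chosen by function: 12 of origin licensing, 5 of helicase activation, 8 of DNA polymerases and primase, 5 of the sliding clamp and its loader, 4 of single-strand binding, flap removal and ligation, 4 of nucleotide supply, and the transcription factors E2f1 and E2f3. Every probe set that the platform annotation names for 1 of these genes alone was taken, and all 40 genes were measured, by 89 probe sets of the 45101 on the array. The study placed 12 Affymetrix mouse arrays in 4 groups of 3, replicates A, B and C: KH2 cells without RA, and KH2 cells after 2, 4 or 6 h in a differentiation medium with serum and 0.3 µM RA. All groups are the same ES cell line grown on feeder cells, with no other genotype or agent named, and after treatment each culture was trypsinised and replated on gelatin for 30 min before the cells that adhered were lysed. The labels do not say that the untreated cells received the differentiation medium, so each difference from no RA holds the medium and RA together. Nor do they say that A, B and C are separate cultures, and p-values then measure only the spread between these arrays, which may be technical.

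In each cell cycle the origin recognition complex marks origins, and Cdc6 and Cdt1 load the MCM helicase on them, a step called licensing that geminin (Gmnn) blocks after S phase has begun. The kinases Cdc7 and CDK then switch the helicase on with Cdc45 and the GINS complex, and primase, the replicative polymerases, the PCNA clamp and ligase copy the DNA. Many of these genes are transcribed through E2F factors, which the retinoblastoma protein restrains in most somatic cells. ES cells are known for a short G1 phase, a large share of cells in S phase and E2F activity that varies little through the cycle.

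The deposited values are log2 signals, so a difference of 1 is a 2-fold change in signal. Each gene was tested on its brightest probe set, with limma over all 18194 genes, and "called" means a Benjamini-Hochberg adjusted p under 0.05. Of the 40 genes, 39 lay above the overall median of 6.07, taken over all probe sets and arrays, on all 12 arrays, and Tyms lay below it on all 12. Array medians ran from 6.05 to 6.10. Over all 45101 probe sets, arrays of the same RA group correlated at 0.997 to 0.998, and untreated A with B at 0.997. Untreated array C stood apart, at 0.993 with untreated A and B. On this array 22 of 27 feeder fibroblast markers were below the mean of A and B, by a median log2 difference of -0.57, while the 40 replication genes differed by a median of 0.048. The RA response itself was plain, since 5 of 5 measured RA response genes were called higher at each time, with Cyp26a1, which degrades RA, up by 6.46 at 6 h.

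At 2 h none of the 40 genes was called, by limma, against 2.69% of all genes (1.50% higher and 1.19% lower), and the smallest limma adjusted p was 0.0804, for Cdc7. At 4 h 13 were called, 32.5% of the 40 against 26.9% of all genes. Of these 13, 9 were lower (22.5% against 14.1% of all genes) and 4 higher (10% against 12.8%). At 6 h 17 were called, 42.5% against 29.7% of all genes. Here 15 were lower, 37.5% against 14.7% of all genes, and 2 higher, 5% against 15.0%. In bulk RNA, fewer cells of a type and less RNA per cell cannot be told apart. The differences were small: at 6 h they ran from -0.48 (E2f1) to 0.47 (Orc2), with a median of -0.11 over the 40 genes and -0.014 over all genes, and a median size of 0.15 against 0.14. The arrays of 25 of the 40 genes (62.5%) did not overlap the untreated ones at 6 h, against 39.0% of all genes. Within groups the 40 genes varied less than all genes. Their median SD was 0.085 untreated and 0.041 at 6 h, against 0.12 and 0.085 over all genes. At the same size of difference a smaller spread gives more calls and less overlap. The part of the spread in these shares was not tested. Leaving out 4 h array A brought the 4 h count to 8, 1 higher and 7 lower, and centring each array on its median made it 15, 3 higher and 12 lower. For these other settings the share of all genes called is not given. The 3 sets of differences share the same untreated arrays and are given side by side.

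**Figure D1:**
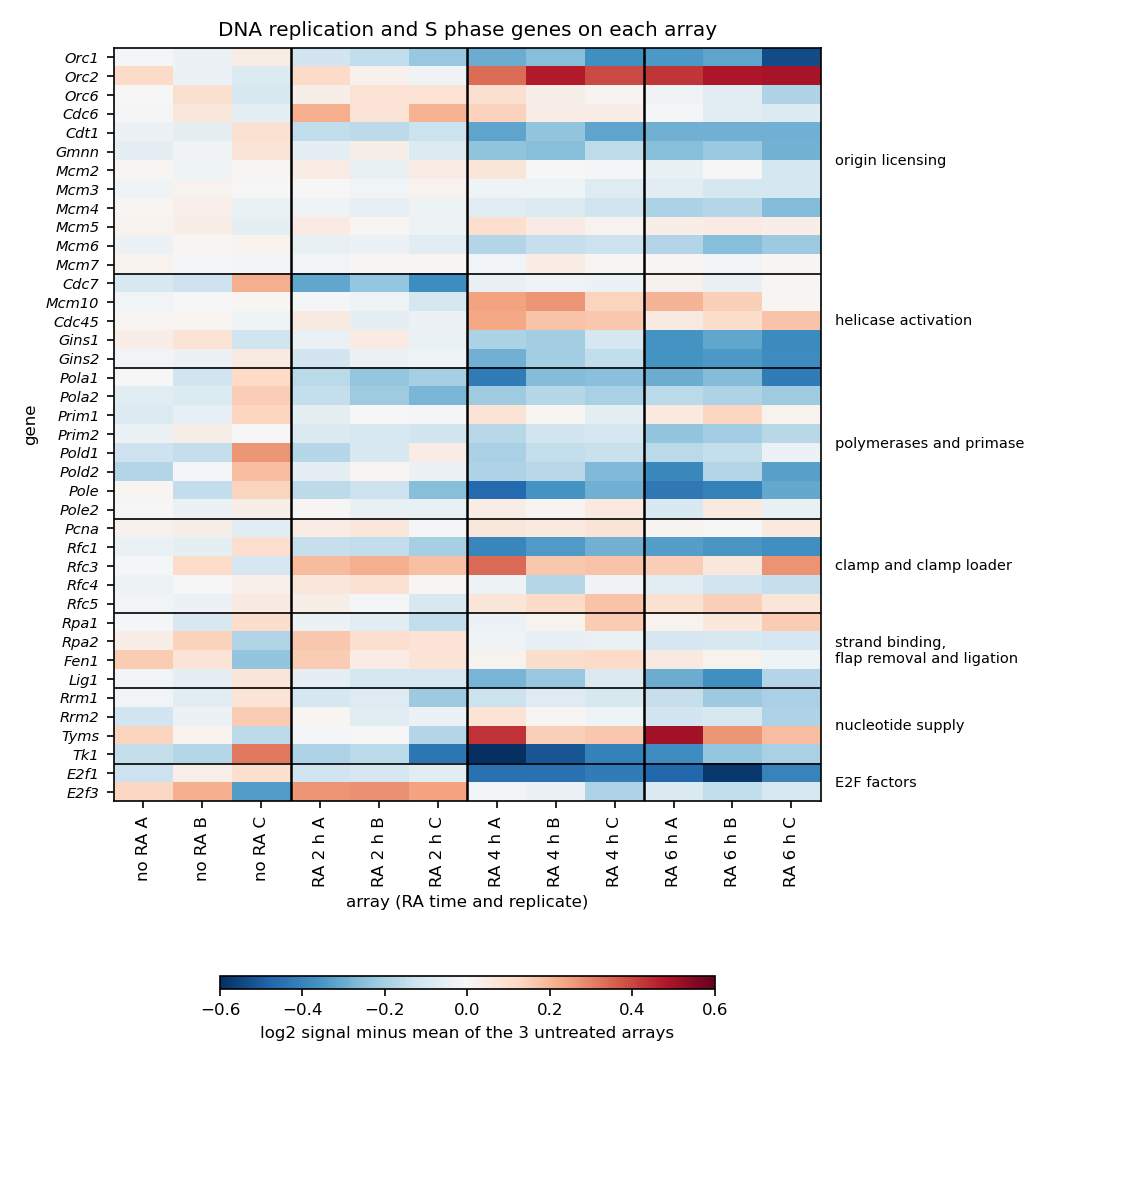
Log2 signal of each of the 40 genes (rows, by role) on each of the 12 arrays (columns), minus the mean of the 3 untreated arrays; red is higher, blue is lower, and values beyond the ends of the scale take the end colour. Orc2 stands out in red and Orc1, Cdt1, Gins2, Pole, Rfc1 and E2f1 in blue on the 4 and 6 h arrays, while the row of Mcm7 stays near white.

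**Figure D2:**
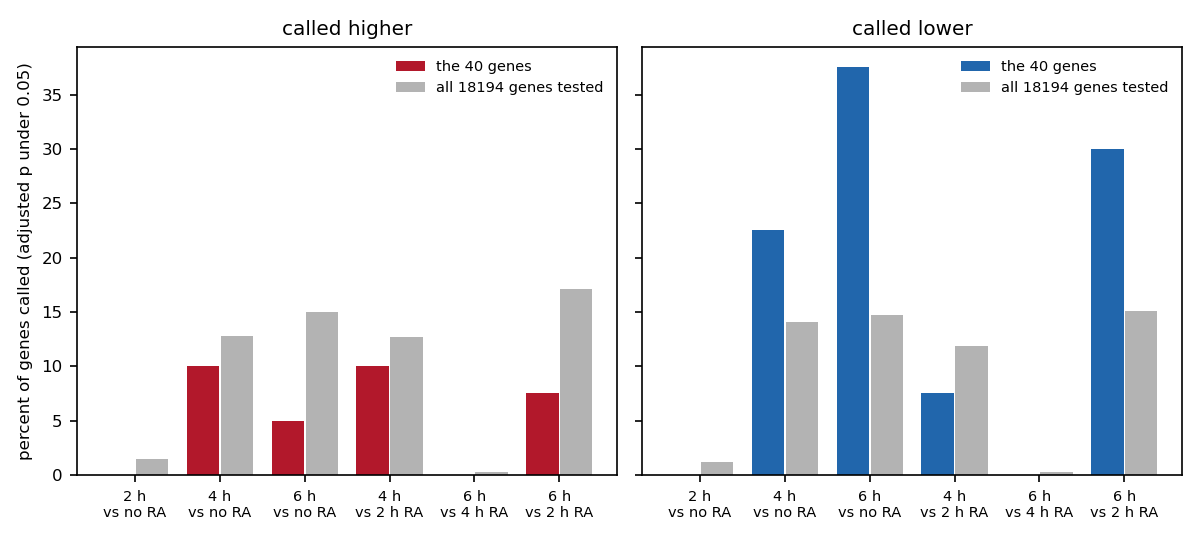
Percent of genes called higher (left) and lower (right) by limma in each of the 6 comparisons, for the 40 genes (coloured bars) and for all 18194 genes tested (grey bars). At 6 h against no RA the lower share is 37.5% beside 14.7%, and the higher share is 5% beside 15.0%.

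Over the time course 21 of the 40 genes were called at some time against no RA and 19 at none. Orc1, Cdt1, Gmnn, Gins2, Pola1, Pole, Rfc1 and E2f1 were lower at both 4 and 6 h, and Orc2 was higher at both. Tk1 was lower and Mcm10, Cdc45 and Rfc3 were higher at 4 h alone. A further 7 genes, Mcm4, Mcm6, Gins1, Prim2, Pold2, Lig1 and Rrm1, were lower at 6 h alone, and Tyms was higher at 6 h alone. A call at 1 time and not at another does not show that the times differ. No gene of the 40 was called between 4 and 6 h, against 0.588% of all genes (0.313% higher, 0.275% lower), with a smallest limma adjusted p of 0.256.

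**Figure D3:**
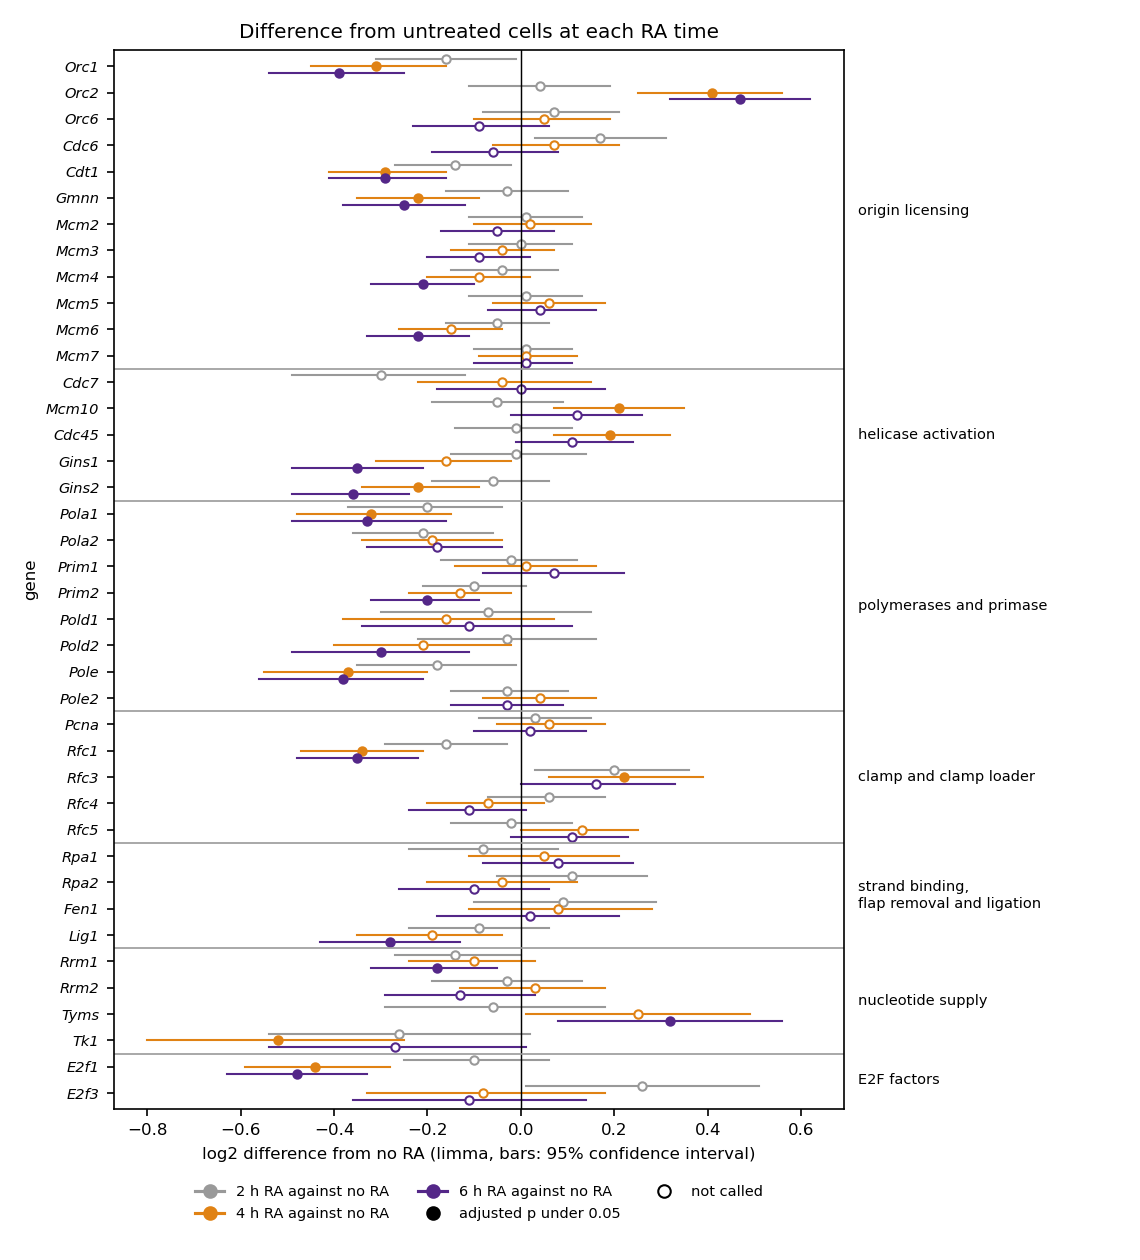
Log2 difference from the untreated cells at 2 h (grey), 4 h (orange) and 6 h (purple) for each of the 40 genes, with 95% confidence intervals of the limma fit; filled points are called. The purple points lie left of 0 for 28 of the 40 genes, and the largest difference to the right is that of Orc2, 0.47.

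E2f1, the activator E2F most closely tied to S phase entry, had the largest fall of the 40 genes at 6 h. Its log2 signal was 9.53, 9.69 and 9.76 on the untreated arrays A, B and C, 9.54, 9.56 and 9.59 at 2 h, 9.21, 9.21 and 9.24 at 4 h, and 9.19, 9.08 and 9.26 at 6 h. Every 4 and 6 h array lay below every untreated and 2 h array, whereas the 2 h arrays lay within the untreated range. The fall was 0.44 ± 0.070 (SE) at 4 h (limma adjusted p = 0.000781) and 0.48 ± 0.070 at 6 h (limma adjusted p = 0.000341), a change in signal of -26.1% and -28.3%. Both further E2f1 probe sets were called lower at 4 and 6 h, the brighter by 0.51 and 0.58. E2f3, the other activator measured here, read 9.94, 10.03 and 9.48 untreated, 10.08, 10.09 and 10.06 at 2 h, 9.80, 9.78 and 9.63 at 4 h, and 9.73, 9.67 and 9.72 at 6 h. Untreated array C lies below all the others for this gene, and the 4 and 6 h arrays lie between it and untreated A and B. E2f3 was not called against no RA, with a difference of -0.11 ± 0.12 at 6 h (limma adjusted p = 0.548). Without untreated C it was called lower at 4 h, by 0.25 (limma adjusted p = 0.0132), and at 6 h, by 0.28 (0.00586). Its further probe set differed by -0.08 and -0.20, not called.

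Because E2f1 moved and E2F sites lie before many replication genes, promoters were searched for E2F words, the core letters that E2F factors bind. RefSeq promoter windows (GRCm38.p6, the 250 bases before each gene start) were at hand for 34 of the 40 genes and were searched on both strands for TTTCCCGC, TTTGGCGC, TTTGCCGC and TTTCGCGC. A word was found in 8 of the 34 (23.5%), in 2.16% of 27025 genes with a promoter, and in 3.15% of the 14453 of these measured on the array. Of the 40 genes, 3 of the 9 genes lower at 6 h with a promoter entry held one, as did 5 of the 23 not called (Cdc6, Mcm5, Mcm7, Rfc3 and E2f3) and 0 of the 2 higher. The 6 genes without an entry (Gmnn, Mcm4, Gins1, Gins2, Prim2 and Pole) were all called lower at 6 h. Their words are unknown, so these counts do not compare lower genes with the rest. The windows of the 3 lower genes with a word, Orc1, Pola1 and Mcm6, are printed below, read along the gene, with the words in capitals. Mcm5, chosen after its values were seen, follows as a helicase subunit whose window holds a similar double word but which was not called.
Orc1: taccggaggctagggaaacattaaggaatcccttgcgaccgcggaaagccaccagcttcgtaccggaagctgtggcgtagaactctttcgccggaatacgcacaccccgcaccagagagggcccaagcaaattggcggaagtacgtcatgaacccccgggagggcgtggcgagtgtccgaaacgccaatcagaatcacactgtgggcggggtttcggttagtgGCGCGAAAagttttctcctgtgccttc
Pola1: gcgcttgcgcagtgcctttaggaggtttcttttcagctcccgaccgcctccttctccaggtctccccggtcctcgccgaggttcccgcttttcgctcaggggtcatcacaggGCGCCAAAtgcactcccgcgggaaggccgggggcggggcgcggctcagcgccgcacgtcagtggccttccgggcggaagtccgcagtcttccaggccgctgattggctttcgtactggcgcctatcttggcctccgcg
Mcm6: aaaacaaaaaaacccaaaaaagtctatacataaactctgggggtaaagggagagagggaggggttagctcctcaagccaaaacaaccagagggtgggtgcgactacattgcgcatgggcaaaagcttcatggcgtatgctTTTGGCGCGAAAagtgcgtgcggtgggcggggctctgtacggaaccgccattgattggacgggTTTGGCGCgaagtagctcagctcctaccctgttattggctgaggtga
Mcm5: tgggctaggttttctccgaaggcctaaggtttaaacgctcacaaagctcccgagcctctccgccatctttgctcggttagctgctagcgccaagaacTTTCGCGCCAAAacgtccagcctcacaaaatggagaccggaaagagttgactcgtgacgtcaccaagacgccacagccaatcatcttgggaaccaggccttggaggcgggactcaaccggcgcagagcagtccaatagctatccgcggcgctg
The Orc1 window is chr4:108579204-108579453 on the plus strand, with 1 word that begins 27 bases before the gene start. Pola1 has 1 word at 138 bases, in chrX:93632156-93632405 on the minus strand. Mcm6, in chr1:128359706-128359955 on the minus strand, has 3 words, at 110, 106 and 47 bases, of which the first 2 overlap on opposite strands by 4 bases. In Mcm5, chr8:75109259-75109508 on the plus strand, 2 words on opposite strands overlap at 153 and 149 bases. A match to these letters is a description of the sequence and not of a bound site.

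Among the 12 licensing genes, 1 rose and 3 fell at 4 h (8.33% and 25%, against 12.8% and 14.1% of all genes), and 1 rose and 5 fell at 6 h (8.33% and 41.7%, against 15.0% and 14.7%). The gene that rose was Orc2 and the gene with the largest fall was Orc1, so on their brightest probe sets 2 subunits of the origin recognition complex moved in opposite directions. Orc1, the subunit whose level cycles most in mammalian cells, read 9.92, 9.89 and 9.97 untreated, 9.81, 9.78 and 9.70 at 2 h, 9.63, 9.67 and 9.56 at 4 h, and 9.58, 9.61 and 9.39 at 6 h. All 9 RA arrays lay below the 3 untreated ones, and the group means stepped down at each time. The difference was -0.16 at 2 h, not called, and Orc1 fell by 0.31 ± 0.068 at 4 h (limma adjusted p = 0.00547) and by 0.39 ± 0.068 at 6 h (limma adjusted p = 0.00095). Its dimmer further probe set, above the overall median on every array, did not show the larger fall at 6 h. It differed by -0.22 at 4 h and -0.07 at 6 h, not called. Orc2, a core subunit of the complex, read 10.51, 10.36 and 10.31 untreated, 10.51, 10.42 and 10.37 at 2 h, 10.73, 10.87 and 10.79 at 4 h, and 10.82, 10.88 and 10.89 at 6 h. The 2 h arrays overlapped the untreated ones, and all 4 and 6 h arrays lay above both. Orc2 rose by 0.41 ± 0.069 at 4 h (limma adjusted p = 0.00109) and by 0.47 ± 0.069 at 6 h (limma adjusted p = 0.000339), an increase in signal of 32.4% and 38.5%. A further Orc2 probe set rose by 0.36 at both times, and the dimmest was 0.24 and 0.27 higher without a call. Orc6, which joins the complex at origins, was not called at any time, with -0.09 at 6 h.

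The loading factor Cdt1 and its inhibitor geminin both fell. Cdt1 read 13.44, 13.42 and 13.57 untreated, 13.33, 13.32 and 13.35 at 2 h, 13.16, 13.24 and 13.16 at 4 h, and 13.19, 13.19 and 13.19 at 6 h. No RA array reached the untreated range, and the fall was 0.29 ± 0.057 at 4 h and the same at 6 h (limma adjusted p = 0.00286 and 0.00255). The second bright Cdt1 probe set was called lower at both times, by 0.31 and 0.29. Gmnn read 12.13, 12.16 and 12.26 untreated, 12.13, 12.22 and 12.10 at 2 h, 11.94, 11.93 and 12.03 at 4 h, and 11.93, 11.96 and 11.90 at 6 h. Its 2 h arrays sat among the untreated ones and its 4 and 6 h arrays lay below them, a fall of 0.22 ± 0.059 at 4 h and of 0.25 ± 0.059 at 6 h (limma adjusted p = 0.018 and 0.00702). The 4 h call was lost without 4 h array A or B and when only the 2 groups compared were fitted. Over all settings its limma adjusted p ran up to 0.0826. Cdc6, the ATPase that loads the helicase with Cdt1, was not called against no RA. It read 10.91, 10.99 and 10.86 untreated, and 11.14 and 11.13 on 2 h A and C, with 2 h B lower but above the untreated, and 10.91, 10.85 and 10.84 at 6 h.

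Calls differed among the 6 subunits of the MCM helicase. Mcm4 and Mcm6 were called lower at 6 h and Mcm2, Mcm3, Mcm5 and Mcm7 at no time. Mcm6 read 13.10, 13.15 and 13.16 untreated, 13.09, 13.10 and 13.07 at 2 h, 12.96 on A and up to 13.01 on B and C at 4 h, and 12.96, 12.88 and 12.92 at 6 h. Its arrays did not overlap the untreated ones at any RA time, and the fall at 6 h was 0.22 ± 0.051 (limma adjusted p = 0.0065), after -0.15 at 4 h (limma adjusted p = 0.0513). Mcm4 went from 12.59, 12.61 and 12.54 untreated to 12.39, 12.41 and 12.32 at 6 h, a fall of 0.21 ± 0.052 (limma adjusted p = 0.00914). A bright further probe set of each differed at 6 h by -0.14 (Mcm4) and -0.19 (Mcm6), not called. Both 6 h calls were lost when only the 2 groups compared were fitted, and that of Mcm4 also with the mean of its probe sets. Mcm7, by contrast, held within 13.48 to 13.54 on all 12 arrays, and the 95% interval of its difference at 6 h ran from -0.10 to 0.11. The interval was -0.17 to 0.07 for Mcm2, -0.20 to 0.02 for Mcm3 and -0.07 to 0.16 for Mcm5. All 4 intervals end short of the fitted -0.21 and -0.22 of Mcm4 and Mcm6. The difference between subunits was not tested.

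Of the 5 helicase activation genes, 2 rose and 1 fell at 4 h (40% and 20%, against 12.8% and 14.1% of all genes). At 6 h limma called 0 higher and 2 lower (0% and 40%, against 15.0% and 14.7%). The GINS subunits Gins1 and Gins2, which join Cdc45 and the MCM ring in the active helicase, fell. Both were called at 6 h, and Gins2 also at 4 h. Mcm10 and Cdc45 rose, called at 4 h alone. Gins2 read 10.49, 10.47 and 10.56 untreated, 10.39, 10.47 and 10.48 at 2 h, 10.22, 10.30 and 10.36 at 4 h, and 10.15, 10.16 and 10.13 at 6 h. The 3 groups from 2 h on stepped down without overlap from one to the next. The fall was 0.22 ± 0.058 at 4 h (limma adjusted p = 0.0158) and 0.36 ± 0.058 at 6 h (limma adjusted p = 0.000574), and its other probe set was called lower at both times. The 4 h call was lost without 4 h array A and when only the 2 groups compared were fitted. Over all settings its limma adjusted p ran up to 0.0846. Gins1 read 11.34, 11.38 and 11.18 untreated, 11.26, 11.35 and 11.26 at 2 h, 11.11, 11.09 and 11.20 at 4 h, and 10.94, 10.99 and 10.92 at 6 h. At 4 h its arrays still overlapped the untreated ones and at 6 h they no longer did, with a fall of 0.35 ± 0.066 (limma adjusted p = 0.00176). At 4 h the difference was -0.16 (limma adjusted p = 0.0876), and -0.23 without untreated C (limma adjusted p = 0.0125).

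Mcm10, which binds the helicase as it is switched on, read 11.02, 11.04 and 11.05 untreated, 11.03, 11.01 and 10.93 at 2 h, 11.28, 11.30 and 11.17 at 4 h, and 11.24, 11.18 and 11.05 at 6 h. All 4 h arrays lay above the untreated ones, as did the 6 h arrays, although 6 h C exceeded the highest untreated value by less than the rounding shown. The rise was 0.21 ± 0.064 at 4 h (limma adjusted p = 0.0288) and the difference at 6 h was 0.12 (limma adjusted p = 0.196). The 4 h call was lost without untreated A or B, without 4 h A or B, after quantile normalization and with only the 2 groups compared fitted. Over all settings its limma adjusted p ran up to 0.106. Both further Mcm10 probe sets were called higher at both times, one by 0.35 and 0.31 and the other, near the median of all values, by 0.52 and 0.55. Cdc45 went from 9.04, 9.04 and 9.0 untreated to 9.26, 9.20 and 9.19 at 4 h, a rise of 0.19 ± 0.057 (limma adjusted p = 0.0251), and was 9.08, 9.13 and 9.20 at 6 h, not called. Without 4 h array A or B the call at 4 h was lost, as it was with the mean of its probe sets and with only the 2 groups compared fitted. Over all settings its limma adjusted p ran up to 0.0912. Cdc7, the kinase that phosphorylates the MCM ring, read 9.85, 9.82 and 10.16 untreated, 9.63, 9.71 and 9.57 at 2 h, 9.90, 9.92 and 9.91 at 4 h, and 9.97, 9.90 and 9.95 at 6 h. Its 2 h arrays were the lowest of the series, by -0.30 ± 0.083 against no RA (limma adjusted p = 0.0804), and its later arrays lay inside the untreated range.

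**Figure D4:**
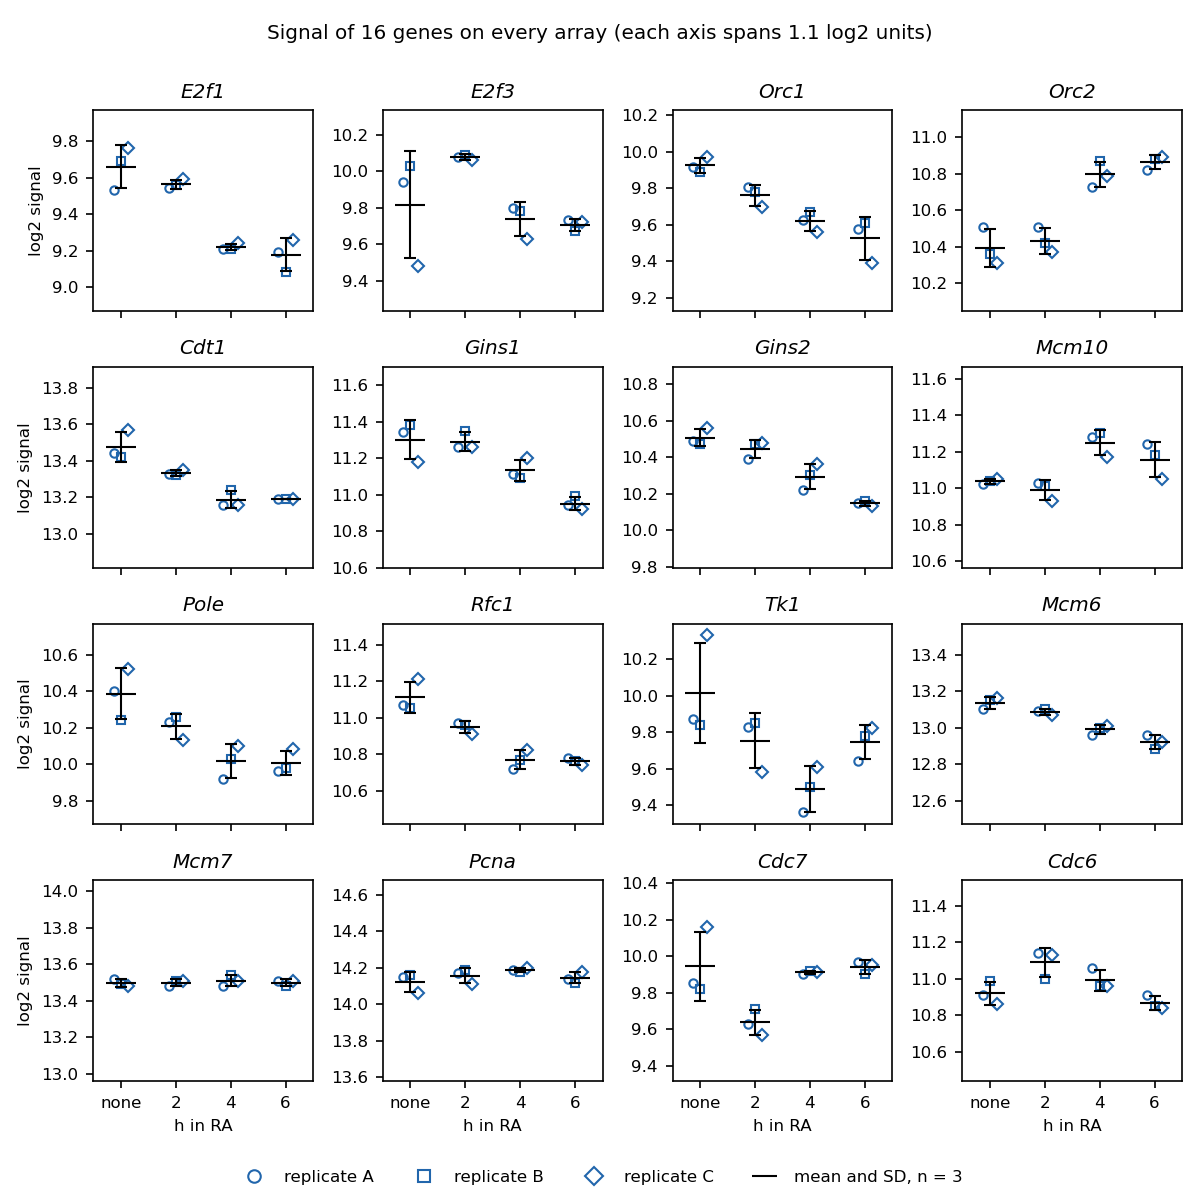
Log2 signal of 16 of the genes on every array against hours in RA; circles, squares and diamonds are replicates A, B and C, the line is the group mean and the bars its SD (n = 3), and every axis spans 1.1 log2 units. The 4 and 6 h points of E2f1, Orc1, Cdt1, Gins2 and Rfc1 lie below the untreated ones and those of Orc2 above, while Mcm7 stays between 13.48 and 13.54.

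Of the 8 polymerase and primase genes, 2 fell at 4 h (25%, against 14.1% of all genes) and 4 fell at 6 h (50%, against 14.7%), and limma called none higher, where 12.8% and 15.0% of all genes were. Pole, the catalytic subunit of the leading-strand polymerase epsilon, read 10.40, 10.24 and 10.52 untreated, 10.23, 10.26 and 10.13 at 2 h, 9.92, 10.03 and 10.10 at 4 h, and 9.96, 9.98 and 10.08 at 6 h. The later arrays lay below all untreated ones, and the fall was 0.37 ± 0.080 at 4 h and 0.38 ± 0.080 at 6 h (limma adjusted p = 0.00442 and 0.00333). Pole2, the second subunit of the same enzyme, did not follow it, with 10.61, 10.58 and 10.65 untreated, 10.52, 10.67 and 10.57 at 6 h, and a 95% interval of -0.15 to 0.09. Pola1, the catalytic subunit of polymerase alpha that starts each strand, read 10.48, 10.36 and 10.60 untreated, 10.32, 10.25 and 10.28 at 2 h, 10.06, 10.22 and 10.23 at 4 h, and 10.18, 10.22 and 10.06 at 6 h. All 9 RA arrays lay below the untreated ones, with a fall of 0.32 ± 0.076 at 4 h and 0.33 ± 0.076 at 6 h (limma adjusted p = 0.00888 and 0.00647). A dim further probe set of Pola1 differed by 0.05 at both times, and the mean of the 2 was not called. Its partner Pola2 differed by -0.21, -0.19 and -0.18 at 2, 4 and 6 h and was called at none, though no RA array overlapped the untreated ones (limma adjusted p = 0.0624 at 6 h). Of the primase pair, the large subunit Prim2 fell by 0.20 ± 0.052 at 6 h, from 10.16, 10.23 and 10.20 to 9.96, 9.99 and 10.03 (limma adjusted p = 0.00998). The Prim2 call was lost with the mean of its probe sets and when only the 2 groups compared were fitted. A bright further Prim2 probe set differed by -0.17 at 6 h, not called. The catalytic subunit Prim1 was 0.07 higher, not called. Pold2, of the lagging-strand polymerase delta, went from 11.34, 11.51 and 11.70 to 11.13, 11.34 and 11.19, a fall of 0.30 ± 0.088 (limma adjusted p = 0.0209). That call was lost without untreated C, the highest array, at -0.21 (limma adjusted p = 0.0539), and without 6 h A or C. The Pold2 call was also lost with array weights and when only the 2 groups compared were fitted. Its catalytic partner Pold1 differed by -0.11, not called, with untreated C again the highest array at 10.42 beside 10.03 and 10.01.

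Pcna, the clamp that holds polymerases on DNA, was flat. It read 14.15, 14.16 and 14.06 untreated, 14.17, 14.19 and 14.11 at 2 h, 14.19, 14.18 and 14.20 at 4 h, and 14.14, 14.12 and 14.18 at 6 h. The 95% interval of its difference at 6 h was -0.10 to 0.14. Rfc1, the large subunit of the complex that loads the clamp, read 11.07, 11.05 and 11.21 untreated, 10.97, 10.96 and 10.91 at 2 h, 10.72, 10.77 and 10.82 at 4 h, and 10.78, 10.76 and 10.74 at 6 h. No RA array reached the untreated range, and the fall was 0.34 ± 0.059 at 4 h and 0.35 ± 0.059 at 6 h (limma adjusted p = 0.00133 and 0.000902). A second bright Rfc1 probe set fell by 0.23 at both times. None of the small subunits Rfc3, Rfc4 and Rfc5 was called lower against no RA. Rfc3 was 0.22 ± 0.076 higher at 4 h (limma adjusted p = 0.0493), from 9.51, 9.63 and 9.42 to 9.86, 9.68 and 9.69. This call, near the threshold, was lost in 18 of 24 other settings, among them leaving out untreated C (limma adjusted p = 0.128). Rfc4 and Rfc5 were not called against no RA, at -0.11 and 0.11 at 6 h. The 6 h arrays of Rfc4 lay below the untreated ones, and it was called lower between 2 and 6 h, by 0.17 (limma adjusted p = 0.044).

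Lig1, the ligase that joins Okazaki fragments, was the only called gene of the 4 that bind, trim and seal strands. At 6 h this made 25% called, near the 29.7% of all genes. Lig1 read 12.12, 12.08 and 12.21 untreated, 12.08, 12.03 and 12.03 at 2 h, 11.86, 11.91 and 12.05 at 4 h, and 11.84, 11.77 and 11.96 at 6 h. The 6 h arrays lay below the untreated ones, with a fall of 0.28 ± 0.070 (limma adjusted p = 0.00962), after -0.19 at 4 h (limma adjusted p = 0.0599). Rpa1 and Rpa2, subunits of the single-strand binding protein, differed by 0.08 and -0.10 at 6 h, and the flap nuclease Fen1 by 0.02, with none called. For Rpa2 and Fen1 untreated C was the lowest array, and without it Rpa2 was called lower at 6 h, by 0.19 (limma adjusted p = 0.018).

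Of the nucleotide supply genes, Tk1, the salvage kinase for thymidine, showed the widest movement and the widest spread. It read 9.87, 9.84 and 10.33 untreated, 9.83, 9.85 and 9.58 at 2 h, 9.36, 9.50 and 9.61 at 4 h, and 9.64, 9.78 and 9.82 at 6 h. The 4 h arrays were lowest, the 6 h arrays lay between them and the untreated ones, and untreated C was the highest of all. Tk1 fell by 0.52 ± 0.13 at 4 h (limma adjusted p = 0.00903), by 0.37 without untreated C (limma adjusted p = 0.0162), and was -0.27 at 6 h, not called. Rrm1, the large subunit of ribonucleotide reductase, went from 11.90 and 11.85 on untreated A and B, with C higher, to 11.78, 11.70 and 11.72 at 6 h, a fall of 0.18 ± 0.061 (limma adjusted p = 0.0405). That call was lost in 17 of 24 other settings, among them leaving out untreated C (limma adjusted p = 0.0897). The small subunit Rrm2, which limits the enzyme in S phase, differed by -0.13, not called. Tyms, the synthase of thymidylate, was 0.32 ± 0.11 higher at 6 h (limma adjusted p = 0.0438), from 5.48, 5.37 and 5.19 to 5.85, 5.61 and 5.53. That value comes from a dim probe set, the call was lost in 14 of 23 other settings, among them leaving out untreated C (limma adjusted p = 0.127), and the other 3 probe sets named for Tyms alone differed by 0.21, -0.16 and 0.00. A bright probe set shared by Tyms and its pseudogene, kept out of the tests, had group means of 11.46, 11.34, 11.56 and 11.56 at 0, 2, 4 and 6 h.

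Comparisons among the RA times leave the untreated arrays out of the difference. Between 2 and 4 h 7 of the 40 genes were called, 17.5% against 24.6% of all genes, with 4 higher (10% against 12.7%) and 3 lower (7.5% against 11.9%). Orc2 (0.36), Cdc7 (0.27), Mcm10 (0.26) and Cdc45 (0.21) were higher at 4 h, and E2f1 (-0.34), Gmnn (-0.18) and Rfc1 (-0.18) lower. The count was 14 without untreated C, 4 without 2 h A or B, 2 without 2 h C or 4 h B, and 3 without 4 h A. Between 2 and 6 h 15 were called, 37.5% against 32.1% of all genes, and again more were lower (12, or 30%, against 15.1% of all genes) than higher (3, or 7.5%, against 17.1%). Orc2 (0.43), Tyms (0.38) and Cdc7 (0.30) rose from 2 to 6 h. The largest falls over that span were those of E2f1 (-0.38, limma adjusted p = 0.00151), E2f3 (-0.37, 0.0283), Gins1 (-0.34, 0.00204) and Gins2 (-0.30, 0.00201). The count was 7 without 2 h A or B, 8 without 2 h C or 6 h A, and 9 without 6 h C. No share of all genes is given beside the counts with an array left out. Cdc6 fell by 0.22 (limma adjusted p = 0.0166) and Rfc4 by 0.17 (0.044), 2 genes not called against no RA. Between 4 and 6 h Tk1 had the largest difference, 0.26, not called.

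Further probe sets of the same genes read other stretches of the transcripts in the same RNA. Of the 17 genes called at 6 h, 13 had further probe sets, 22 in all, and 19 of these had the same sign and 7 were called the same way. All 11 of the further ones that exceeded the overall median on each array had the same sign. No gene was called in opposite directions by 2 of its probe sets. Tested probe set by probe set, 20 of the 89 were called at 4 h (6 higher, 14 lower) and 24 at 6 h (4 higher, 20 lower). Of all 34958 probe sets named for 1 gene, 22.4% and 24.8% were called in either direction. Both totals for the 89 were near these shares. The shares of all probe sets called higher or lower are not given. The widest disagreement in size was in Rfc1, where a dim probe set fell by 1.34 ± 0.41 with an untreated SD of 0.67. The brightest probe set of 15 of the 40 genes carries a suffix by which the manufacturer marks possible cross-hybridisation.

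**Figure D5:**
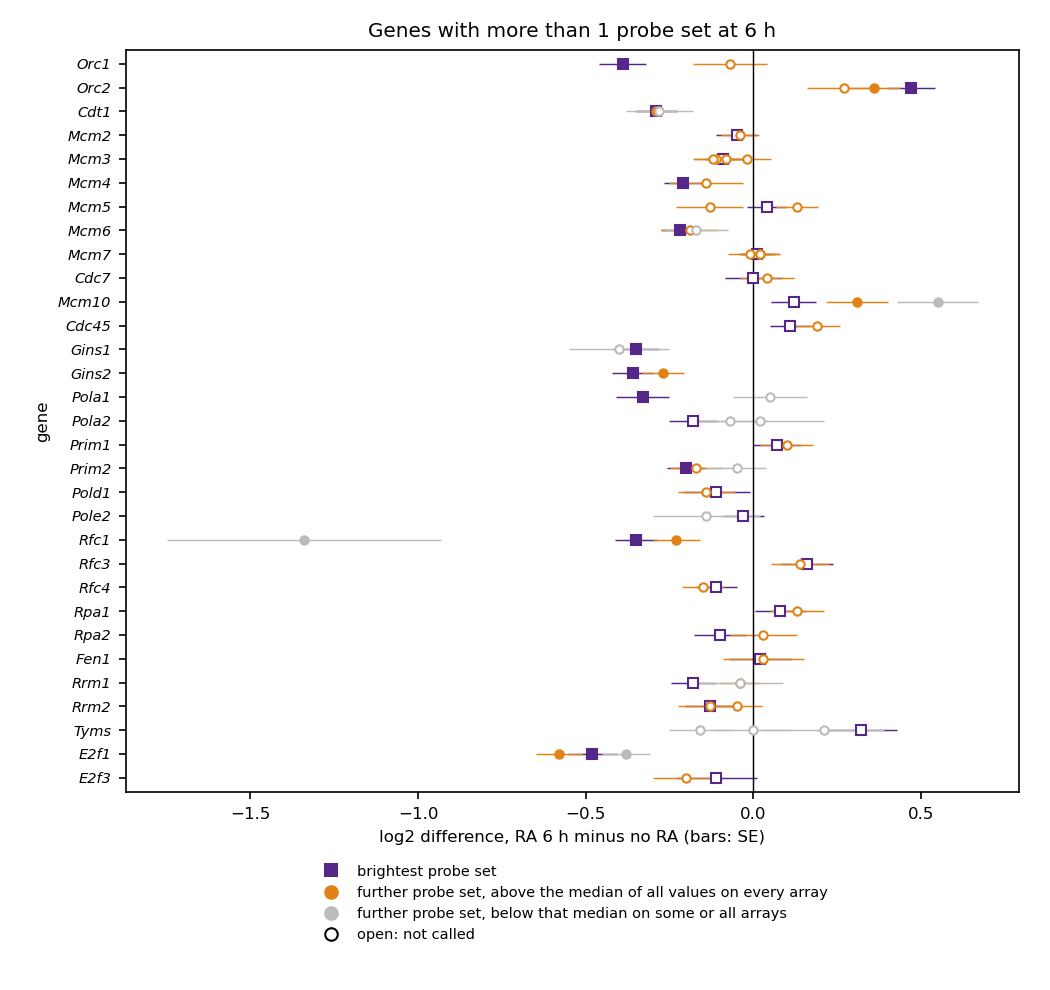
Log2 difference at 6 h for each probe set of the 31 genes with more than 1, with SE bars; squares are the brightest probe set, orange circles further ones that exceed the overall median on each array, grey circles dimmer ones, and filled symbols are called in the fit over all 34958 probe sets. Rrm1 and Tyms, called over genes, are open here, and the bright probe sets of the other called genes lie on the same side of 0 as their squares.

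Other genes of the pathway were described from lists that hold none of the 40. Of 36 further replication genes, 9 rose and 4 fell at 4 h (25% and 11.1%, against 12.8% and 14.1% of all genes). At 6 h 10 rose and 4 fell (27.8% and 11.1%, against 15.0% and 14.7%), so here more genes rose than fell. The chromatin assembly factor subunit Chaf1b, which places histones behind the fork, had the largest fall, 0.42 at 4 h and 0.67 ± 0.055 at 6 h (limma adjusted p = 6.19e-06). The histone chaperone Asf1b, which hands histones to that complex, rose by 0.55 and 0.50. Recql4, a helicase of origin firing, rose by 0.28 and 0.42 at 4 and 6 h. Chtf18, of an alternative clamp loader, rose by 0.42 at 6 h alone, and Wdhd1, which links helicase and polymerase alpha, rose by 0.29 and 0.33 at 4 and 6 h. Orc4, a further subunit of the origin complex, was lower by 0.39 at 4 h alone. Among 15 further nucleotide genes limma called none higher, and 2 fell at 4 h and 3 at 6 h (13.3% and 20%), shares near the 14.1% and 14.7% of all genes. They were Samhd1, a dNTP hydrolase, by 0.36 and 0.35, the purine enzyme Gart by 0.31 at both times, and Paics by 0.16 at 6 h alone.

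Of 20 genes of the E2F family and S phase entry, 2 rose and 5 fell at 4 h (10% and 25%, against 12.8% and 14.1% of all genes) and 2 rose and 4 fell at 6 h (10% and 20%, against 15.0% and 14.7%). E2f7, an E2F repressor, was the only one called at 2 h, lower by 0.33 (limma adjusted p = 0.00943), and was lower by 0.21 and 0.37 at 4 and 6 h. The E2F partner Tfdp2 fell by 0.49 and 0.35 at 4 and 6 h. The pocket protein Rbl2, which represses E2F targets, rose by 0.53 and 0.35, and E2f6, a repressor without a pocket-protein site, rose by 0.35 and 0.39. Wee1, the kinase that holds back mitotic CDK, fell by 0.27 and 0.26 at 4 and 6 h. Of 26 mitosis genes 2 rose and 11 fell at 4 h (7.69% and 42.3%, against 12.8% and 14.1% of all genes) and 3 rose and 8 fell at 6 h (11.5% and 30.8%, against 15.0% and 14.7%), the falls including Bub1b (-0.46 and -0.45) and Nusap1 (-0.43 and -0.50).

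Markers of feeders and of the ES cell state were read on the same arrays. Of 27 feeder fibroblast markers 4 were higher and 1 lower at 4 h (14.8% and 3.7%, against 12.8% and 14.1% of all genes) and 2 higher and 2 lower at 6 h (7.41% each, against 15.0% and 14.7%), with median differences of 0.24, 0.27 and 0.18 at 2, 4 and 6 h. Their summed linear signal ran from 19189 to 24197 on the untreated arrays and from 18995 to 21100 at 6 h, and in each group at most 2 of the 27 were below the overall median throughout. Of 10 ES cell markers 1 was higher at 2 h (Nanog, by 0.48), 5 were lower and 0 higher at 4 h, and 6 were lower and 1 higher at 6 h (60% and 10%, against 14.7% and 15.0% of all genes), with Fgf4 down by 1.31 and 1.33 and Zfp42 by 0.50 and 0.56. The mean of the 40 replication genes lay at 11.20 to 11.24 on the untreated arrays, 11.15 to 11.19 at 2 h, 11.14 to 11.15 at 4 h and 11.10 to 11.11 at 6 h. The part of the feeder and ES cell shifts in the replication differences was not tested. Leaving out untreated C, where feeder markers were lowest, gave 14 calls at 4 h (3 higher, 11 lower) and 16 at 6 h (1 higher, 15 lower), with the share of all genes not given.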

How the data were processed

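RNA of 12 samples was measured on Affymetrix mouse arrays, 3 per group, after labelling of 200 ng with biotin, per the labels. The authors deposited log2 signals, and limma 3.4.3 is named in the submitters' processing notes. The normalization method is not given in the sources used here, and the number of arrays limits the precision. Probe sets were named with the platform annotation: 34958 for 1 gene, 932 for several and 9211 for none, with 64 controls. Those of several genes were not tested, and each of the 18194 genes was read by its brightest probe set. No further normalization was applied.

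Group means were fitted over all 12 arrays in R 4.3.3 by the lmFit and eBayes functions of limma 3.58.1, which left 8 residual degrees of freedom and added 3.78 from the prior, and adjusted p-values are Benjamini-Hochberg values over all genes of a comparison. The fit was tested on simulated data. The members, the lists, the E2F words and the rule for named genes were chosen with earlier results of these data known. By that rule all 40 genes are named, values on every array are given for the E2F factors and the called genes with the largest differences in each role, and up to 4 called genes with the largest differences are named from each list of related genes. The 7 other lists were other replication genes, other nucleotide supply genes, E2F and S phase entry, mitosis, feeder markers, ES cell markers and RA response genes. Promoter windows are those of RefSeq on GRCm38.p6, cut at the gene start, with no entry for 6 of the 40 genes (Gmnn, Mcm4, Gins1, Gins2, Prim2 and Pole).

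The replicate letters were checked for pairing: deviations from the group means of same-letter arrays correlated between -0.13 and 0.31, over 0.1 in 4 of 18 pairs, so the letters were not used as pairs. Alternatives covered normalization, probe set choice, dim genes, variance model, array weights, the arrays fitted, the threshold and leaving out each array.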

Additional observations from a re-analysis of the deposited data

Results flagged for a closer look

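Cdc7, Cdc6 and E2f3 had 2 h arrays that did not overlap the untreated ones, and by the limma test between RA times they were called at a later time in the direction opposite to their 2 h difference, with no difference from no RA called. They were picked for this pattern, and both differences use the same 2 h arrays. A shift of those arrays alone would give opposite signs, so the pattern is not a test of a reversal. Cdc7 was 0.30 lower than untreated at 2 h, and higher than at 2 h by 0.27 at 4 h (limma adjusted p = 0.0334) and by 0.30 at 6 h (0.0152). Cdc6 was 0.17 ± 0.063 higher than untreated at 2 h, with no overlap between the arrays, and differed by -0.22 between 2 and 6 h (limma adjusted p = 0.0166). E2f3 was 0.26 higher than untreated at 2 h and differed by -0.37 between 2 and 6 h (limma adjusted p = 0.0283). Untreated C, at 9.48, was the lowest array for E2f3, and without it the difference at 2 h was 0.09. For Cdc7 untreated C was the highest array, at 10.16, and without it the difference at 2 h was -0.20.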

How the results depend on the processing

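None of the 40 genes' calls against no RA reversed under any of 24 other settings (23 for Cdc6, Mcm7, Cdc7, Pole, Fen1 and Tyms), 12 of them leaving out 1 array. Reversals between RA times were not tabulated. At 4 h 7 of the 13 calls held in all those run (Orc1, Orc2, Cdt1, Pole, Rfc1, Tk1 and E2f1) and at 6 h 10 of the 17 (Orc1, Orc2, Cdt1, Gmnn, Gins1, Gins2, Pole, Rfc1, Lig1 and E2f1). At 2 h the count of called genes was 1, Cdc7, without dim genes, with a trended and robust variance, or at an adjusted p under 0.10, and 0 to 1 with 1 array left out. Fitting only the 2 groups compared gave 7 at 4 h and 11 at 6 h. A threshold of 0.01 gave 8 at 4 h, 2 between 2 and 4 h and 4 between 2 and 6 h. Between 2 and 4 h the count was 11 without dim genes, 12 with a trended and robust variance, 16 with array weights and 12 at a threshold of 0.10. Between 2 and 6 h a trended and robust variance gave 24. With 1 array left out the counts ran from 8 to 14 at 4 h, 14 to 17 at 6 h, 2 to 14 between 2 and 4 h and 7 to 20 between 2 and 6 h, and stayed at 0 between 4 and 6 h. With the letter as a replicate block they were 0, 14 and 16 at 2, 4 and 6 h against no RA, and 7, 0 and 15 between 2 and 4, 4 and 6, and 2 and 6 h, and 5 of 12 arrays were closest to their own letter. The cause of these shifts was not tested. Since the share of all genes called under each setting is not given, a changed count may reflect the 40 genes or all genes alike. The brightest Tyms probe set lay below the overall median, where signal over background is least.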
